A study of Mus musculus with 40 samples.

Results

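RNA of 55 genes of the germ line was followed through every RNA library of a study of mouse embryonic stem cells. The genes were chosen by symbol as germline, meiosis and piRNA genes. The choice set no threshold on their levels, but was made with earlier results of these data known. All 55 symbols were listed in each of the 3 count tables, which hold 55276, 55291 and 55276 genes. After a filter on low counts, 49 of the 55 were tested in the genotype table, 49 in the Pramel7 table and 51 in the time course, among 21193, 20161 and 20612 tested genes. By role they comprise 18 genes of the piRNA pathway and germ granule, 8 germ cell regulators, 11 genes of the synaptonemal complex, chromosome axis and cohesin, 11 genes of meiotic recombination and telomere attachment, and 7 other germ cell genes. piRNAs are small RNAs that guide PIWI proteins to transposon transcripts in germ cells, and they are made in germ granules with the help of RNA helicases and Tudor domain proteins. In meiosis, homologous chromosomes are organised along protein axes, joined by the synaptonemal complex and exchanged by recombination. Embryonic stem cells keep many of these genes low through DNA methylation of CpG-rich promoters and through a Polycomb complex that reads E2F6 and MGA-MAX sites, and DPPA2 is a chromatin protein known to act at a set of such promoters.

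The cells were E14tg2a, a mouse embryonic stem cell line, grown in serum with leukaemia inhibitory factor. The corepressor CtBP has the genes Ctbp1 and Ctbp2, and the study took it away with and without Dux, a transcription factor gene of the 2-cell embryo. Ctbp2 was brought back in the time course only, which holds no Dux knockout. In the genotype table there were 2 libraries for each of 6 lines, unmodified cells (WT), a Dux knockout (DuxKO), a Dppa2 knockout (Dppa2KO), a knockout of Ctbp1 and Ctbp2 (CtbpDKO), a knockout of Ctbp and Dux (Ctbp_DuxTKO) and a knockout of Ctbp and Dppa2 (DKO_Dppa2KO). The Pramel7 table holds 4 libraries of WT and 2 each of DuxKO, a Pramel7 knockout (P7KO), Pramel7 overexpression (P7OE) and Pramel7 overexpression in DuxKO cells (DuxKO_P7OE). The time course holds 2 libraries each of CtbpDKO cells at days 0, 3, 9, 12 and 18, all labelled Dox, with no statement of when the drug was given. The labels do not say whether a line is 1 clone, what drives Pramel7 or whether replicates were separate cultures, so p-values measure only the spread between these libraries. Libraries held 19944644 to 36025046 counts in the genotype table, 10123058 to 30135341 in the Pramel7 table and 16674526 to 30169626 in the time course, and levels are given as CPM, counts scaled by the library's size.

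The targeted genes were read before the members. Ctbp1 had 1 and 2 counts in CtbpDKO, 2 and 4 in Ctbp_DuxTKO and 4 and 0 in DKO_Dppa2KO, against 1911 and 2109 in WT. Reads over Ctbp2 were fewer but not gone, at 43.6 and 43.8 CPM in CtbpDKO against 211 and 215 in WT. The libraries called DKO_Dppa2KO are named for Dppa2 and Dux in their title and for the Ctbp and Dppa2 knockouts in their description. The description was followed, and a Ctbp line that also lacks Dux cannot be told apart from it, since Duxf3 (the Dux entry) had 0 counts there and in Dppa2KO alike. Duxf3 had 40 and 24 counts in CtbpDKO, 1 and 0 in WT and 0 and 0 in DuxKO. In the Pramel7 table it had at most 2 counts in a WT library and 0 in both DuxKO libraries. The label DuxKO could therefore not be checked by RNA against WT. Reads over Dppa2 remained in Dppa2KO, at 1208 and 1027 counts against 1707 and 1868 in WT. Pramel7 had at most 4 counts in each WT library of its table, 435 and 431 in P7OE and 537 and 588 in DuxKO_P7OE, so the label P7KO could not be checked by RNA. The 8 stem cell markers (Pou5f1, Nanog and others) were all above 0 in every group, with sums of 2384 to 2476 CPM in WT and 1848 to 2004 CPM in Ctbp_DuxTKO, the lowest. The summed level of the 55 members was 276 to 282 CPM in WT, 220.0 to 226 in DuxKO, 203 to 211 in Dppa2KO, 422 to 427 in CtbpDKO, 416 to 421 in Ctbp_DuxTKO and 236 to 239.6 in DKO_Dppa2KO.

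Promoters of the members were read from RefSeq on build GRCm38.p6, in windows from 250 bases before to 50 bases after each start. A window was held for 49 of the 55 members, 61 windows in all, and the members without one were Piwil2, Tdrd6, Tex11, Tex15, Spo11 and Majin. The median window held 18 CpG dinucleotides, against 7 over all 32851 windows. Each window was searched on both strands for CACGTG, the E-box read by MGA and MAX, and for TCCCGC, the core of the E2F6 site. CACGTG was found in 32.8% of member windows and 7.2% of all windows, and TCCCGC in 44.3% and 20%. Among windows with at least 10 CpG, the shares were 37.7% of 53 member windows against 10.9% of 14281 for CACGTG, and 49.1% against 40.3% for TCCCGC. A match is a run of letters and not a measured binding site. The sequences below are the 250 bases before the start, 5′ to 3′ along the gene, with either motif in capitals on whichever strand it lies. Rpl10l, Mov10l1, Ddx4, Syce1, Tuba3a and D1Pas1 are shown as the 6 with the smallest p in Dppa2KO among the members called both there and in CtbpDKO against WT, results given further on. Stra8 and Hsf2bp were added after their values were seen, because they moved unlike those.
Rpl10l, chr12:66284402-66284651, minus strand: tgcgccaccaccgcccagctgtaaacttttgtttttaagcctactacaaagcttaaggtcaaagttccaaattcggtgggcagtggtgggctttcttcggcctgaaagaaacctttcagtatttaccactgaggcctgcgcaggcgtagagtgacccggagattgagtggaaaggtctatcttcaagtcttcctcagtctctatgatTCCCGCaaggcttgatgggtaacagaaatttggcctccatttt
Mov10l1, chr15:88982744-88982993, plus strand: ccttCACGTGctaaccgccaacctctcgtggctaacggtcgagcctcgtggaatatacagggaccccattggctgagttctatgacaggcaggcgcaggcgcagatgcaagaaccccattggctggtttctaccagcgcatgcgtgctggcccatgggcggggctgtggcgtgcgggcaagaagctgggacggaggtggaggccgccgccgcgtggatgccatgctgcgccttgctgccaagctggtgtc
Ddx4, chr13:112652311-112652560, minus strand: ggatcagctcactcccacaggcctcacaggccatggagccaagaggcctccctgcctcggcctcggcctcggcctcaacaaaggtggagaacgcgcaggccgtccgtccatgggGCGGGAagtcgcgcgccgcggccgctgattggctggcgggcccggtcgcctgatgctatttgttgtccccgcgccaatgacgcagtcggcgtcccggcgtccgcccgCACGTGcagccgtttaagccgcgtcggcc
Syce1, chr7:140787855-140788104, minus strand: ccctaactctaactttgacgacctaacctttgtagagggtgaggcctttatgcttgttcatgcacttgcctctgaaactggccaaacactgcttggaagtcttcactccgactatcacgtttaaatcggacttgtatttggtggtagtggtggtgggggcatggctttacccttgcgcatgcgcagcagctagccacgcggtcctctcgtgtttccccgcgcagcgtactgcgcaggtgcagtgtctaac
Tuba3a, chr6:125286082-125286331, minus strand: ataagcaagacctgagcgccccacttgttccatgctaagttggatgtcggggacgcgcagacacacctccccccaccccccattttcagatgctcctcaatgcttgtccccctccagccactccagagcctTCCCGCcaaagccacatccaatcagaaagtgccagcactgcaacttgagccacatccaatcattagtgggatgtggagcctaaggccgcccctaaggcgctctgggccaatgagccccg
D1Pas1, chr1:186967166-186967415, plus strand: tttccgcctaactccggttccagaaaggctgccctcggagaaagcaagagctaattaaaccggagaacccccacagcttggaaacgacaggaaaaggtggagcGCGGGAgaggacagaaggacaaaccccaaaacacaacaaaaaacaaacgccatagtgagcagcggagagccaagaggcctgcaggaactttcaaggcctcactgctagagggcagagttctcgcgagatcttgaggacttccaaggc
Stra8, chr6:34920698-34920947, plus strand: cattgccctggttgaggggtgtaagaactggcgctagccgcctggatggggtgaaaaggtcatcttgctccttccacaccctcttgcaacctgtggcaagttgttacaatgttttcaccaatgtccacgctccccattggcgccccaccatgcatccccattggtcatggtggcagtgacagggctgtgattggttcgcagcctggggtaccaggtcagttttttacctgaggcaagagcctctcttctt
Hsf2bp, chr17:32034509-32034758, minus strand: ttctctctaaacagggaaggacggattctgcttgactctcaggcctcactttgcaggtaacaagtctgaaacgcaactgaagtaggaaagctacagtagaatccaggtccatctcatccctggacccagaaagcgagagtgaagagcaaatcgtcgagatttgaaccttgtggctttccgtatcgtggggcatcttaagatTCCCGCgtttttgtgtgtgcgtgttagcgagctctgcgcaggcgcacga

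In these windows, Ddx4 held both motifs, Mov10l1 held CACGTG, and Rpl10l, Tuba3a, D1Pas1 and Hsf2bp held TCCCGC. Neither Syce1 nor Stra8 held a match in its printed window, and the full window of Stra8 had the fewest CpG of the 8 genes, with 10 over its 300 bases. No match says only that the letters are not in that window.

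Germline transcripts were higher in CtbpDKO than in WT, with calls in every role that were not equally firm. In CtbpDKO against WT, 23 of 49 tested members were called higher (adjusted p under 0.05), where 14.7% of all tested genes were, and 2 were called lower, against 11.4% (26.1% in either direction). Their median log2 fold change was 0.92, and that of all tested genes was 0.01. The piRNA pathway gave 9 higher of 16 tested, the regulators 3 of 6, the synaptonemal complex and axis 4 of 10, recombination 3 of 10 and the other germ cell genes 4 of 7. The 3 of recombination were Msh5, Tex11 and Terb1, and none of them held throughout when 1 library at a time was left out. Bulk RNA cannot tell apart more cells that express a gene from more RNA per cell. The genes named are the 8 with the smallest p in each direction, in the order of their roles, and the levels of all 6 genotypes are given with each.

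Of the piRNA genes, Mov10l1, an RNA helicase that starts piRNA processing, stood at 7.65 and 6.88 CPM in WT, 7.89 and 7.45 in DuxKO, 0.413 and 0.227 in Dppa2KO, 16.5 and 17.1 in CtbpDKO, 13.7 and 13.3 in Ctbp_DuxTKO, and 1.45 and 1.44 in DKO_Dppa2KO. Both CtbpDKO libraries lay above both WT libraries (log2 fold change 1.21, SE 0.15, edgeR adjusted p 4.3e-05), and the Dppa2 knockout lines were lowest. Fkbp6, a cochaperone of piRNA formation, stood at 0.738 and 0.456 CPM in WT, 0.102 and 0.133 in DuxKO, 0 and 0 in Dppa2KO, 4.94 and 5.11 in CtbpDKO, 3.47 and 6.38 in Ctbp_DuxTKO, and 0.300 and 0.170 in DKO_Dppa2KO. It was below 1 CPM in both WT libraries and rose in CtbpDKO (log2 fold change 3.07, SE 0.38, edgeR adjusted p 7.96e-05). Tex19.1, which guards germ cells against transposons and is also active in pluripotent cells, stood at 38.1 and 39.7 CPM in WT, 20.3 and 21.1 in DuxKO, 24.1 and 27.0 in Dppa2KO, 71.8 and 65.9 in CtbpDKO, 73.7 and 69.1 in Ctbp_DuxTKO, and 49.6 and 47.8 in DKO_Dppa2KO. It rose in CtbpDKO (log2 fold change 0.82, SE 0.09, edgeR adjusted p 2.3e-05). The other piRNA genes called higher were Mael, Piwil2, Tex15, Stk31, Tdrkh and Ddx4, with log2 fold changes from 0.58 for Ddx4 to 1.51 for Mael.

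Stra8, which opens the way into meiosis in response to retinoic acid, had the smallest p of all members. It stood at 2.52 and 1.76 CPM in WT, 1.33 and 1.26 in DuxKO, 8.23 and 9.08 in Dppa2KO, 30.5 and 22.7 in CtbpDKO, 6.46 and 7.64 in Ctbp_DuxTKO, and 19.3 and 17.9 in DKO_Dppa2KO. Its rise in CtbpDKO (log2 fold change 3.64, SE 0.20, edgeR adjusted p 2.42e-08) left the CtbpDKO libraries above every other library of the table. Brdt, a testis bromodomain protein, and Dazl, an RNA-binding regulator of germ cells, also rose, by 2.50 and 1.70 on the log2 scale. Of the chromosome axis, Hormad2, a HORMA domain protein of unsynapsed axes, stood at 0.872 and 0.554 CPM in WT, 1.16 and 0.964 in DuxKO, 0.468 and 0.340 in Dppa2KO, 4.76 and 3.52 in CtbpDKO, 4.47 and 4.62 in Ctbp_DuxTKO, and 7.71 and 9.15 in DKO_Dppa2KO. It rose in CtbpDKO (log2 fold change 2.53, SE 0.28, edgeR adjusted p 2.13e-05) and was higher still in DKO_Dppa2KO. Smc1b, a cohesin subunit of meiosis, stood at 2.65 and 2.48 CPM in WT, 0.816 and 0.898 in DuxKO, 1.71 and 2.35 in Dppa2KO, 7.20 and 11.2 in CtbpDKO, 12.5 and 13.5 in Ctbp_DuxTKO, and 3.46 and 3.39 in DKO_Dppa2KO, and it rose in CtbpDKO (log2 fold change 1.85, SE 0.23, edgeR adjusted p 4.46e-05). Syce1 and Syce2, of the central element of the synaptonemal complex, rose by 1.28 and 0.33. Terb1, which ties telomeres to the nuclear envelope, had 2 counts in WT and 44 in CtbpDKO, a ratio of 19.4 with an exact 95% interval of 5.06 to 165 that covers counting error only. It passed the filter on low counts only through lines without Ctbp, so its direction here was set by the filter. The Terb1 call was lost without CtbpDKO replicate 1 (edgeR adjusted p 0.147) or WT replicate 1 (0.106), and the Syce2 call without any 1 of the 4 libraries (0.101 to 0.176).

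Among the other germ cell genes, Rpl10l, a testis copy of a ribosomal protein gene, stood at 10.4 and 10.7 CPM in WT, 5.88 and 5.92 in DuxKO, 0.495 and 0.425 in Dppa2KO, 32.5 and 28.6 in CtbpDKO, 39.2 and 41.3 in Ctbp_DuxTKO, and 3.41 and 3.94 in DKO_Dppa2KO. Its CtbpDKO libraries lay above WT (log2 fold change 1.53, SE 0.12, edgeR adjusted p 5.82e-07), and Dppa2KO was the lowest group. Tuba3a, a testis alpha-tubulin, stood at 11.7 and 13.1 CPM in WT, 4.90 and 5.19 in DuxKO, 3.55 and 3.54 in Dppa2KO, 33.9 and 29.2 in CtbpDKO, 44.3 and 45.1 in Ctbp_DuxTKO, and 11.6 and 13.7 in DKO_Dppa2KO, with the same order of CtbpDKO over WT (log2 fold change 1.35, SE 0.12, edgeR adjusted p 2.75e-06). Reads of Tuba3a and Tuba3b, of Rpl10l and Rpl10, and of D1Pas1 and Ddx3x can be split between near-identical copies, so the share of each copy is uncertain. The members called lower were Hsf2bp, a partner of BRCA2 in meiotic recombination, and Sycp3, a rod of the chromosome axis. Hsf2bp stood at 50.02 and 50.9 CPM in WT, 27.4 and 26.5 in DuxKO, 57.8 and 49.8 in Dppa2KO, 32.1 and 37.3 in CtbpDKO, 35.5 and 35.9 in Ctbp_DuxTKO, and 34.1 and 33.6 in DKO_Dppa2KO. It fell in CtbpDKO (log2 fold change -0.54, SE 0.10, edgeR adjusted p 0.00153), and the DuxKO libraries were the lowest of the table. Sycp3 stood at 3.86 and 3.72 CPM in WT, 2.11 and 1.60 in DuxKO, 2.75 and 2.95 in Dppa2KO, 1.28 and 1.96 in CtbpDKO, 0.910 and 0.951 in Ctbp_DuxTKO, and 0.651 and 0.508 in DKO_Dppa2KO, and its fall in CtbpDKO (log2 fold change -1.22, SE 0.28, edgeR adjusted p 0.0051) was no longer called without CtbpDKO replicate 1 (log2 fold change -0.98, edgeR adjusted p 0.0552). Leaving out 1 library at a time, 14 of the 25 calls held throughout, and the count was 16 without WT replicate 2. The calls that did not were Sycp3 and the higher calls of Ddx4, Tdrkh, Tex15, Stk31, Dazl, Syce2, Msh5, Tex11, Terb1 and D1Pas1. The 16 markers of 2-cell-like cells summed to 55.7 to 71.9 CPM in CtbpDKO and 0.782 to 1.07 CPM in WT, and the 7 primordial germ cell markers to 71.2 to 76.8 CPM and 100 to 107 CPM, with 0 of the 7 called higher and 3 lower. Of the 7 primitive endoderm markers 4 were called higher, with sums of 38.5 to 40.7 CPM against 28.5 to 33.2 CPM. The part of these markers in the members' rise was not tested.

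**Figure D1:**
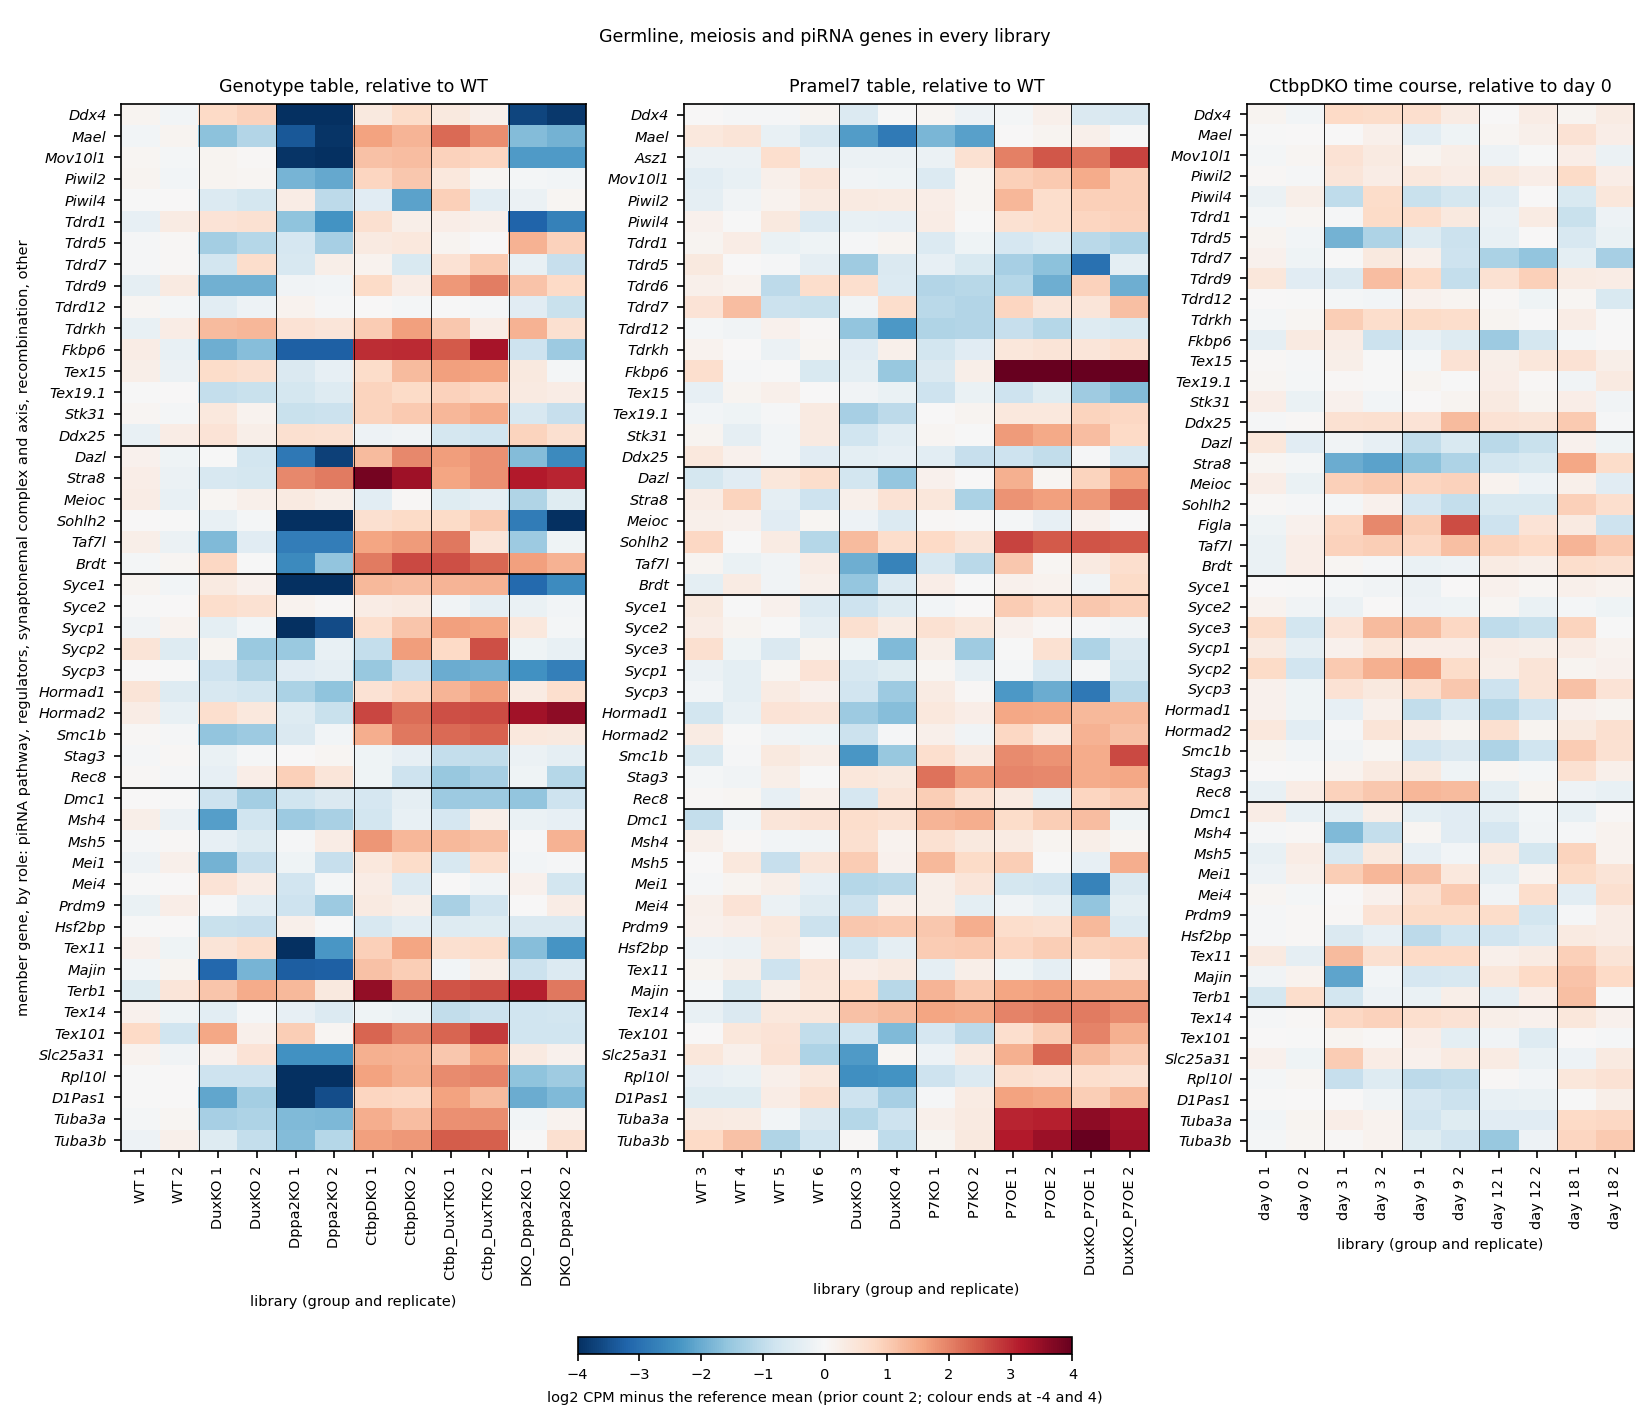
Level of each tested member in every library (log2 CPM with a prior count of 2, minus the mean of WT or of day 0), with members as rows grouped by role and libraries as columns in 3 tables. Red marks libraries above and blue libraries below the reference mean, and the Dppa2KO columns hold the deepest blue (Ddx4 and Syce1 at 0 counts) while Stra8 is red there.

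Members of every role were lower in Dppa2KO than in WT. In Dppa2KO against WT, 23 of 49 tested members were called lower, where 8.69% of all tested genes were, and 1 was called higher, against 7.67%. The members' median log2 fold change was -0.91, with genes at 0 set to their bound, against -0.02 over all tested genes. The counts of lower calls were 9 of 16 for the piRNA pathway, 4 of 6 for the regulators, 3 of 10 for the synaptonemal complex and axis, 2 of 10 for recombination and 5 of 7 for the other germ cell genes. Leaving out 1 library at a time left 20 or 21 calls, and 18 of the 24 held throughout. Those that did not were Tdrd5, Stk31, Taf7l, Brdt, Hormad1 and Tuba3b.

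Several members were at or close to 0 in both Dppa2KO libraries. Ddx4, the RNA helicase of germ granules, stood at 4.90 and 4.27 CPM in WT, 8.03 and 8.81 in DuxKO, 0 and 0 in Dppa2KO, 6.07 and 7.66 in CtbpDKO, 6.07 and 5.26 in Ctbp_DuxTKO, and 0.300 and 0.254 in DKO_Dppa2KO. No count was found in Dppa2KO, so the fall is a bound, set against 3 counts over the group (at least 109-fold lower, edgeR adjusted p 2.78e-07). Mael, a protein of transposon silencing in male germ cells, stood at 2.48 and 2.90 CPM in WT, 0.816 and 1.16 in DuxKO, 0.193 and 0.113 in Dppa2KO, 8.36 and 7.04 in CtbpDKO, 13.2 and 10.0 in Ctbp_DuxTKO, and 0.751 and 0.678 in DKO_Dppa2KO, and its Dppa2KO libraries were the lowest of the 6 groups (log2 fold change -4.10, SE 0.35, edgeR adjusted p 9.46e-06). Mov10l1, with the values above, fell (log2 fold change -4.48, SE 0.22, edgeR adjusted p 4.55e-08). Piwil2, the PIWI protein MILI, stood at 4.87 and 4.21 CPM in WT, 4.93 and 4.79 in DuxKO, 1.21 and 1.05 in Dppa2KO, 8.33 and 9.70 in CtbpDKO, 6.11 and 4.82 in Ctbp_DuxTKO, and 4.26 and 4.15 in DKO_Dppa2KO, with Dppa2KO again lowest (log2 fold change -2.00, SE 0.21, edgeR adjusted p 5.09e-05). The other piRNA genes called lower were Fkbp6, Tex19.1, Tdrd1, Stk31 and Tdrd5. Fkbp6 had 0 counts in Dppa2KO and was at least 14.2-fold lower (edgeR adjusted p 0.000916).

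Sohlh2, a helix-loop-helix factor of early germ cells, stood at 5.27 and 5.22 CPM in WT, 4.25 and 4.95 in DuxKO, 0 and 0.113 in Dppa2KO, 8.30 and 8.91 in CtbpDKO, 8.89 and 11 in Ctbp_DuxTKO, and 0.701 and 0.170 in DKO_Dppa2KO. It fell in Dppa2KO (log2 fold change -6.45, SE 0.53, edgeR adjusted p 7.41e-06), and since 1 of the Dppa2KO libraries had 0 counts, the fitted value was -5.47 without Dppa2KO replicate 1 and -10.26 without replicate 2. Dazl fell as well, with 2 counts over both Dppa2KO libraries against 50 in WT, a ratio of 29.6 (exact 95% interval 7.77 to 251, edgeR adjusted p 0.00127). Stra8 moved the other way and was the member called higher (log2 fold change 2.02, SE 0.20, edgeR adjusted p 3.24e-05), from 2.52 and 1.76 CPM in WT to 8.23 and 9.08 in Dppa2KO. Of the synaptonemal complex, Syce1 stood at 4.29 and 3.68 CPM in WT, 5.14 and 4.49 in DuxKO, 0 and 0 in Dppa2KO, 9.97 and 9.36 in CtbpDKO, 10.4 and 10.5 in Ctbp_DuxTKO, and 0.401 and 0.636 in DKO_Dppa2KO. Its absence from the Dppa2KO counts made it at least 95.1-fold lower (edgeR adjusted p 2.78e-07). Sycp1, which bridges the paired axes, stood at 1.88 and 2.28 CPM in WT, 1.56 and 1.90 in DuxKO, 0 and 0.113 in Dppa2KO, 3.33 and 4.53 in CtbpDKO, 6.63 and 6.35 in Ctbp_DuxTKO, and 2.81 and 1.95 in DKO_Dppa2KO, and it fell in Dppa2KO (log2 fold change -5.12, SE 0.56, edgeR adjusted p 7.79e-05), with values of -4.14 and -8.93 without Dppa2KO replicate 1 and replicate 2. Stag3, Syce2 and Hsf2bp were not called in Dppa2KO, with log2 fold changes of 0.05, 0.10 and 0.09.

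Majin, which anchors telomeres with Terb1, stood at 1.04 and 1.24 CPM in WT, 0.0680 and 0.266 in DuxKO, 0.0551 and 0.0567 in Dppa2KO, 2.62 and 2.32 in CtbpDKO, 1.04 and 1.36 in Ctbp_DuxTKO, and 0.601 and 0.763 in DKO_Dppa2KO and fell in Dppa2KO (log2 fold change -4.25, SE 0.61, edgeR adjusted p 0.000626). Tex11, a crossover factor, fell by 3.70 on the log2 scale, with values of -2.71 and -8.06 without Dppa2KO replicate 1 and replicate 2. Rpl10l, with the levels given above, had the smallest p of the comparison (log2 fold change -4.51, SE 0.17, edgeR adjusted p 5.43e-09), and its Dppa2KO libraries were the lowest of the table. D1Pas1, a testis relative of the helicase gene Ddx3x, stood at 7.31 and 7.43 CPM in WT, 1.70 and 2.83 in DuxKO, 0.220 and 0.567 in Dppa2KO, 13.4 and 13.0 in CtbpDKO, 22.6 and 18 in Ctbp_DuxTKO, and 1.80 and 2.12 in DKO_Dppa2KO, and it fell in Dppa2KO (log2 fold change -4.22, SE 0.31, edgeR adjusted p 3.05e-06). Without Dppa2KO replicate 2 its value was -5.04. Tuba3a fell too (log2 fold change -1.80, SE 0.13, edgeR adjusted p 2.86e-06). Slc25a31 and Taf7l had 0 counts in Dppa2KO and were at least 7.10-fold and 9.47-fold lower. The call of Taf7l was lost without WT replicate 1 (edgeR adjusted p 0.0565) and without Dppa2KO replicate 1 or 2 (0.0688 and 0.0554). The 7 primordial germ cell markers summed to 112 to 116 CPM in Dppa2KO and 100 to 107 CPM in WT.

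The promoter windows of the members lower in Dppa2KO were set beside those of the other tested members, as a description with no test. CACGTG lay in 60% of 25 windows of the former, from 11 of 20 genes, and in 16.1% of 31 windows of the latter, from 5 of 25 genes. TCCCGC lay in 48% and 48.4%, and the median CpG number was 21 and 18. For members higher in CtbpDKO and the other tested members, CACGTG lay in 39.1% of 23 and 33.3% of 33 windows, and in the windows of 7 of 20 and 9 of 25 genes (35% and 36%). Of the printed windows, those of Ddx4 and Mov10l1 carry CACGTG, and those of Rpl10l, Syce1, Tuba3a and D1Pas1 do not, though all 6 genes fell in Dppa2KO.

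**Figure D2:**
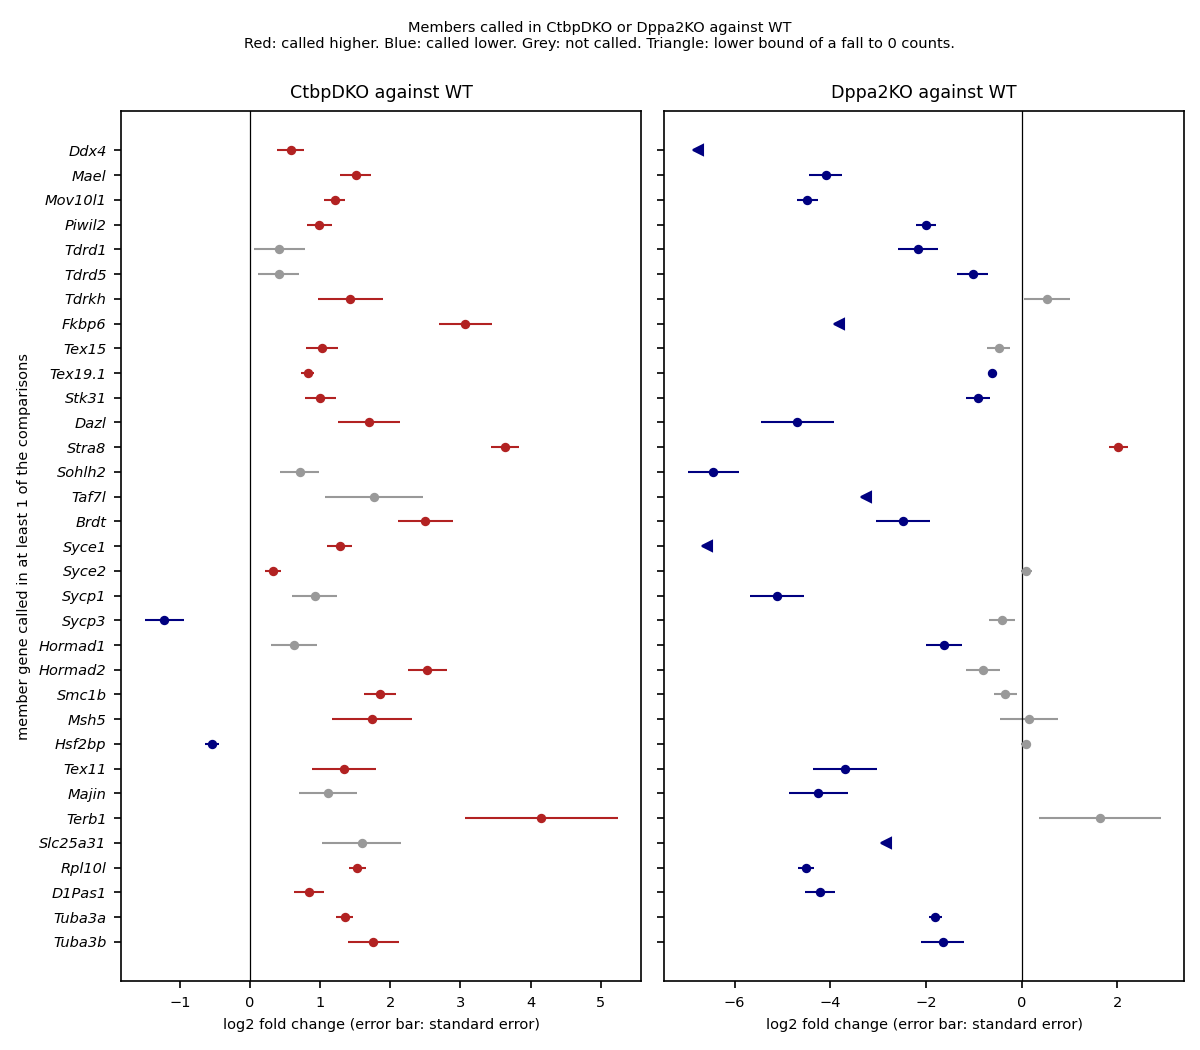
Log2 fold change (x axis, bars show the standard error) of every member called in CtbpDKO against WT (left) or Dppa2KO against WT (right), with 2 libraries a group. Red points were called higher, blue lower and grey not called, and triangles are bounds for genes with 0 counts in Dppa2KO. Most points lie right of 0 on the left and left of 0 on the right, with Stra8 to the right in both.

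Without Ctbp, the Dppa2 knockout again went with lower members. In DKO_Dppa2KO against CtbpDKO, 25 of 49 tested members were called lower (9.67% of all tested genes) and 2 higher (5.75%), and the median log2 fold change was -0.75 against -0.03 over all tested genes. The 8 lower members with the smallest p were Rpl10l, Mov10l1, Syce1, Ddx4, Mael, Tuba3a, Sohlh2 and D1Pas1. Rpl10l fell (log2 fold change -3.05, SE 0.13, edgeR adjusted p 7.51e-08), Mov10l1 (log2 fold change -3.54, SE 0.18, edgeR adjusted p 1.31e-07), and Syce1 (log2 fold change -4.19, SE 0.25, edgeR adjusted p 9.15e-07). Ddx4 had 6 counts in each DKO_Dppa2KO library, and fell (log2 fold change -4.62, SE 0.29, edgeR adjusted p 1.58e-06). Mael fell (log2 fold change -3.43, SE 0.28, edgeR adjusted p 7.23e-06). Tuba3a fell (log2 fold change -1.32, SE 0.12, edgeR adjusted p 2.72e-05), and D1Pas1 (log2 fold change -2.74, SE 0.26, edgeR adjusted p 2.96e-05). Sohlh2 fell (log2 fold change -4.35, SE 0.41, edgeR adjusted p 2.79e-05), and its value was -5.63 and -3.61 without DKO_Dppa2KO replicate 1 and replicate 2. Hormad2 and Ddx25, a testis RNA helicase, were called higher, at log2 fold changes of 1.03 and 0.98. Of the Hormad2 call, the adjusted p was 0.106 without CtbpDKO replicate 2 and 0.099 without DKO_Dppa2KO replicate 2, and the Ddx25 call was lost without any 1 of the 4 libraries (0.0693 to 0.129). The lower calls of Tdrd12, Tex15, Taf7l, Syce2, Sycp3, Majin, Tex14, Tex101 and Tuba3b were also each lost in at least 1 fit with 1 library left out. Tex101 passed the filter on low counts only through CtbpDKO and Ctbp_DuxTKO, so its direction here was set by the filter. The comparisons Dppa2KO against WT and DKO_Dppa2KO against CtbpDKO share no library. Of their 23 and 25 lower members, 18 were in both, 78.3% and 72% of the lists. Among the 18 are Taf7l, Majin and Tuba3b, whose calls in DKO_Dppa2KO against CtbpDKO did not hold throughout. Lists this long out of 49 tested members share some by size alone, and no overlap given here or further on was tested. Markers of other cell types moved with the members in DKO_Dppa2KO against CtbpDKO. Of the 12 tested markers of 2-cell-like cells 11 were called lower, and the 16 listed summed to 0.170 to 0.551 CPM against 55.7 to 71.9 CPM. Of the 7 primitive endoderm markers 5 were called lower, with sums of 10.7 to 11.3 CPM against 38.5 to 40.7 CPM. The part of either in the members' fall was not tested.

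Members were also higher without Ctbp in the Dppa2 knockout background, where reads over Dppa2 were fewer but remained. In DKO_Dppa2KO against Dppa2KO, 22 of 49 tested members were called higher (15.2% of all tested genes) and 6 lower (15.2%, and 30.4% either way), and their median log2 fold change was 1.22 against 0.02. Rpl10l rose (log2 fold change 2.99, SE 0.19, edgeR adjusted p 1.13e-07), and yet its DKO_Dppa2KO libraries, at 3.41 and 3.94 CPM, stayed under both WT libraries. Hormad2 rose (log2 fold change 4.37, SE 0.30, edgeR adjusted p 2.53e-07), to above every other group. Tuba3a rose (log2 fold change 1.83, SE 0.13, edgeR adjusted p 4.45e-07), to 11.6 and 13.7 CPM, which overlaps WT at 11.7 and 13.1. Sycp1 rose (log2 fold change 5.30, SE 0.56, edgeR adjusted p 1.2e-05), from 0 and 4 counts in Dppa2KO, and its value was 4.31 and 9.11 without Dppa2KO replicate 1 and replicate 2. Tex19.1 rose (log2 fold change 0.93, SE 0.09, edgeR adjusted p 8.75e-06), and Piwil2 (log2 fold change 1.89, SE 0.21, edgeR adjusted p 2.08e-05). Ddx4 and Syce1, both at 0 in Dppa2KO, were at least 6.57-fold higher (edgeR adjusted p 0.000538) and at least 12.6-fold higher (edgeR adjusted p 4.67e-05), and both stayed under the WT libraries. Mov10l1 rose (log2 fold change 2.16, SE 0.27, edgeR adjusted p 4.95e-05), and stayed under WT as well. Those called lower included Sycp3 (log2 fold change -2.30, SE 0.33, edgeR adjusted p 0.000172) and Hsf2bp (log2 fold change -0.67, SE 0.10, edgeR adjusted p 0.000288), together with Tdrd12, Meioc, Rec8 and Stag3. CtbpDKO against WT, which shares no library with this comparison, had 23 higher members, and 15 were higher in both, 65.2% and 68.2% of the lists. Of the 7 primitive endoderm markers 4 were lower in DKO_Dppa2KO than in Dppa2KO and 1 was higher, and of the 7 primordial germ cell markers 3 were lower and 2 higher. The part of either in the result was not tested.

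Whether the effect of Ctbp loss differed between cells with and without the Dppa2 knockout was tested as an interaction. 8 of 49 tested members passed (8.23% of all tested genes did). The smallest p was that of Stra8, whose rise was smaller by 2.53 on the log2 scale in the Dppa2 knockout (SE 0.26, edgeR adjusted p 0.000147). For Rpl10l the rise was larger by 1.46 there (SE 0.22, edgeR adjusted p 0.00216). Sycp1, Syce1, Ddx4, Hormad2 and Tdrd5 also had positive terms and Syce2 a negative term. The terms of Syce1 and Ddx4 are set by the 0 counts in Dppa2KO and carry no fold, and that of Sycp1 was 3.41 and 8.19 without Dppa2KO replicate 1 and replicate 2. The calls of Hormad2, Tdrd5 and Syce2 were each lost without WT replicate 1 and without CtbpDKO replicate 2 (edgeR adjusted p 0.0522 to 0.113). The count was 5 without WT replicate 1 or CtbpDKO replicate 2 and 9 without Dppa2KO replicate 1.

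**Figure D3:**
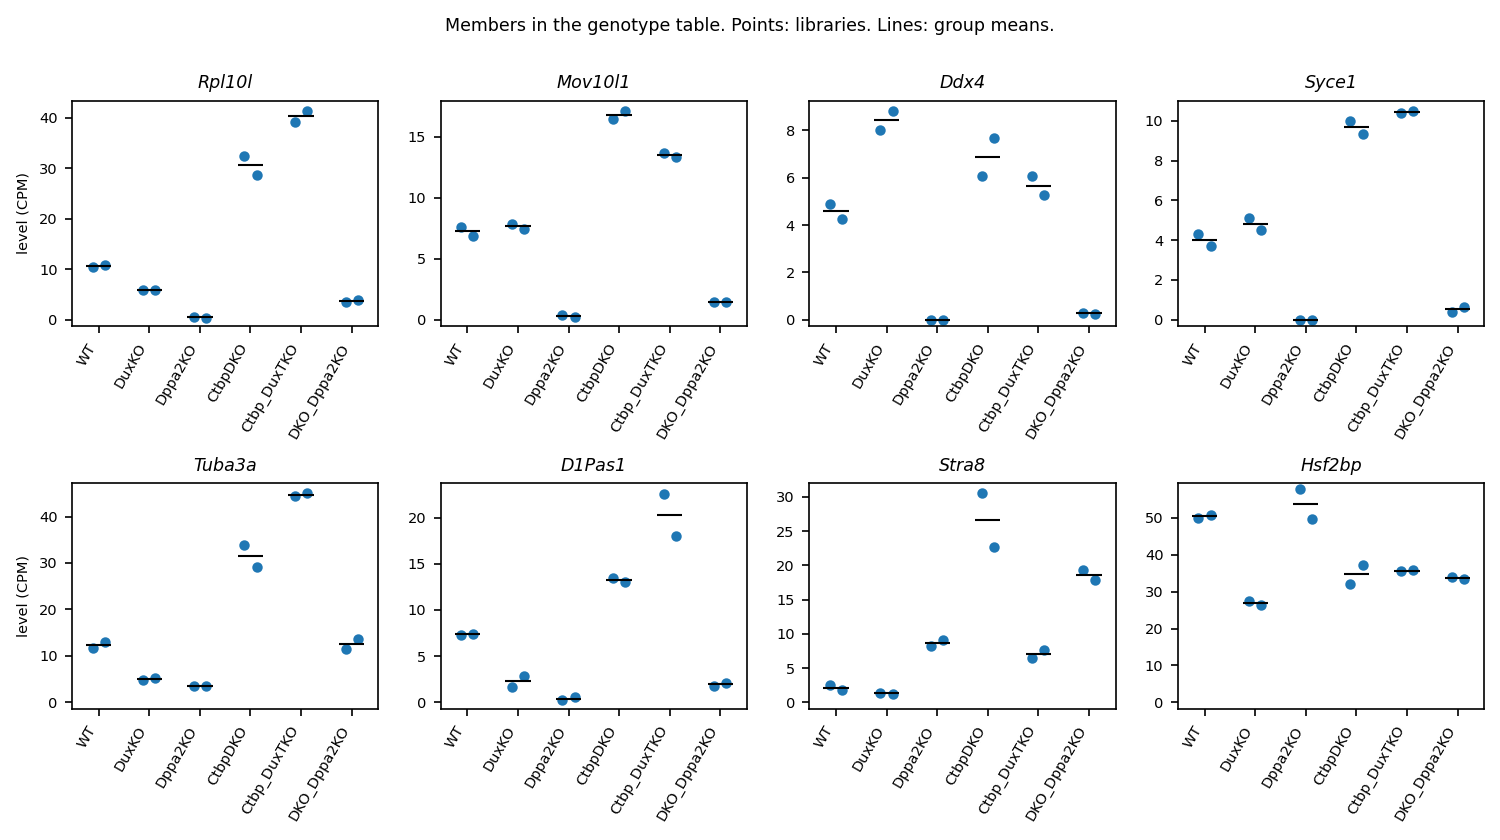
CPM of 8 members in the 12 libraries of the genotype table, with 1 panel a gene, 2 points a group and a line at the group mean. Rpl10l, Mov10l1, Ddx4, Syce1, Tuba3a and D1Pas1 are lowest in Dppa2KO, Stra8 is highest in CtbpDKO, and Hsf2bp is lowest in DuxKO (27.4 and 26.5 CPM).

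Part of the members were lower in the libraries labelled DuxKO, in cells that keep Ctbp. In the genotype table, 13 of 49 tested members were called lower in DuxKO against WT (9.56% of all tested genes) and 2 higher (7.94%), with a median of -0.28 against -0.01. In the Pramel7 table, whose libraries are separate, 10 of 49 were lower (8.91%) and 1 higher (7.76%), with a median of -0.42 against -0.01. Mael, Tex19.1, Smc1b, Hsf2bp, Rpl10l, D1Pas1 and Tuba3a were lower in both tables, which is 53.8% of the 13 and 70% of the 10. In the genotype table the smallest p were those of Tuba3a (log2 fold change -1.29, SE 0.13, edgeR adjusted p 2.31e-05), Tex19.1 (log2 fold change -0.91, SE 0.10, edgeR adjusted p 3.21e-05) and Hsf2bp (log2 fold change -0.90, SE 0.10, edgeR adjusted p 6.55e-05). Rpl10l fell (log2 fold change -0.84, SE 0.12, edgeR adjusted p 0.000412), and D1Pas1 (log2 fold change -1.70, SE 0.25, edgeR adjusted p 0.000456). Smc1b fell (log2 fold change -1.58, SE 0.28, edgeR adjusted p 0.00168), Mael (log2 fold change -1.44, SE 0.26, edgeR adjusted p 0.00226), and Majin (log2 fold change -2.73, SE 0.53, edgeR adjusted p 0.00335). The value of Majin was -2.08 and -3.98 without DuxKO replicate 1 and replicate 2. Syce2 and Ddx4 were higher, by 0.66 and 0.88 on the log2 scale. With 1 library left out at a time, the Ddx4 call was lost without DuxKO replicate 2 and without WT replicate 2. The lower calls of Tdrd5, Tdrd9, Fkbp6, Sycp3 and Dmc1 were each lost in at least 1 such fit as well. Of the 7 primitive endoderm markers 6 were called lower in the same comparison (median log2 fold change -1.86), with sums of 7.45 to 7.92 CPM in DuxKO and 28.5 to 33.2 CPM in WT. The markers of 2-cell-like cells summed to 0 to 0.133 CPM in DuxKO and 0.782 to 1.07 CPM in WT, with 3 of 12 tested called lower. The part of either in the members' fall was not tested.

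In the Pramel7 table, Rpl10l stood at 21.6, 22.4, 31.2 and 36.4 CPM in WT, 4.92 and 5.07 in DuxKO, 15.3 and 18.4 in P7KO, 42.5 and 40.6 in P7OE, and 43.5 and 41.3 in DuxKO_P7OE. All 4 WT libraries lay above both DuxKO libraries (log2 fold change -2.48, SE 0.22, edgeR adjusted p 1.36e-05). Tdrd12, a Tudor domain protein of piRNA amplification, stood at 17.7, 16.9, 21.2 and 19.2 CPM in WT, 6.26 and 3.75 in DuxKO, 8.14 and 8.25 in P7KO, 9.71 and 8.40 in P7OE, and 12.9 and 12.2 in DuxKO_P7OE, and fell in DuxKO (log2 fold change -1.92, SE 0.20, edgeR adjusted p 4.75e-05), a change that was not called in the genotype table (log2 fold change -0.32, edgeR adjusted p 0.215). Tex19.1 fell (log2 fold change -1.20, SE 0.16, edgeR adjusted p 0.000276). Mael stood at 8.89, 9.60, 5.39 and 4.28 CPM in WT, 1.34 and 0.858 in DuxKO, 1.82 and 1.43 in P7KO, 6.68 and 7.12 in P7OE, and 7.61 and 6.56 in DuxKO_P7OE, with DuxKO lowest (log2 fold change -2.71, SE 0.37, edgeR adjusted p 0.000343). Tex14, a protein of the bridges between germ cells, stood at 4.58, 3.78, 7.54 and 7.87 CPM in WT, 12.9 and 13.7 in DuxKO, 17.1 and 16.2 in P7KO, 22.8 and 24.2 in P7OE, and 24.0 and 21.0 in DuxKO_P7OE. It was the member called higher in DuxKO (log2 fold change 1.16, SE 0.24, edgeR adjusted p 0.00492), and the call was lost without DuxKO replicate 4 (edgeR adjusted p 0.0567). Taf7l, Smc1b, Hormad1, Tuba3a, D1Pas1 and Hsf2bp made up the other lower calls. The count was 6 without DuxKO replicate 3 and 5 without DuxKO replicate 4, and Rpl10l, Tdrd12, Tex19.1 and Mael held throughout. The 16 markers of 2-cell-like cells summed to 1.81 to 2.57 CPM in WT and to 0.0357 to 0.168 CPM in DuxKO, and their part in the fall of the members was not tested.

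Among cells without Dux, members were higher in the line that also lacks Ctbp. In Ctbp_DuxTKO against DuxKO, 25 of 49 tested members were called higher (21.4% of all tested genes) and 7 lower (19.6%, and 41% either way), with a median of 1.19 against 0.04. Tuba3a rose (log2 fold change 3.15, SE 0.13, edgeR adjusted p 1.69e-09), Rpl10l (log2 fold change 2.77, SE 0.12, edgeR adjusted p 2.84e-09), and Tex19.1 (log2 fold change 1.79, SE 0.10, edgeR adjusted p 1.46e-08). Tuba3a and Rpl10l had their highest levels of the genotype table in Ctbp_DuxTKO, and the Tex19.1 libraries there overlapped those of CtbpDKO. Smc1b rose (log2 fold change 3.92, SE 0.26, edgeR adjusted p 9.54e-08), Mael (log2 fold change 3.54, SE 0.25, edgeR adjusted p 1.92e-07), and D1Pas1 (log2 fold change 3.16, SE 0.25, edgeR adjusted p 4.86e-07). Stra8 rose (log2 fold change 2.45, SE 0.22, edgeR adjusted p 1.34e-06), and Fkbp6 (log2 fold change 5.35, SE 0.49, edgeR adjusted p 3.47e-06). Syce2 stood at 23.0 and 23.9 CPM in WT, 38.3 and 35.9 in DuxKO, 25.9 and 24.3 in Dppa2KO, 28.7 and 30.3 in CtbpDKO, 21.1 and 18.1 in Ctbp_DuxTKO, and 19.6 and 21.6 in DKO_Dppa2KO and was lower in Ctbp_DuxTKO (log2 fold change -0.92, SE 0.11, edgeR adjusted p 1.77e-05). Stag3, a cohesin subunit of meiosis, stood at 29.7 and 31.4 CPM in WT, 25.5 and 29.6 in DuxKO, 31.2 and 32.1 in Dppa2KO, 27.4 and 24.4 in CtbpDKO, 15.7 and 15.3 in Ctbp_DuxTKO, and 25.9 and 23.7 in DKO_Dppa2KO, with Ctbp_DuxTKO lowest (log2 fold change -0.83, SE 0.11, edgeR adjusted p 5e-05). Tex14, Ddx25, Rec8, Sycp3 and Ddx4 were the other lower members. The Ddx4 call was lost without any 1 of the 4 libraries (edgeR adjusted p 0.0535 to 0.135). Of the 23 members higher in CtbpDKO against WT and the 25 higher here, with no library shared, 17 were in both, 73.9% and 68% of the lists. In Ctbp_DuxTKO, 11 of the 16 markers of 2-cell-like cells were at 0 in both libraries, Duxf3 among them. The 7 primitive endoderm markers summed to 134 to 137 CPM there and 7.45 to 7.92 CPM in DuxKO, with 7 of 7 called higher, and their part in the result was not tested.

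With Ctbp absent, 8 members were called between lines with and without Dux. In Ctbp_DuxTKO against CtbpDKO, 6 of 49 were called lower (4.54% of all tested genes) and 2 higher (3.6%), and the members' median was 0.00 against 0.00. Stra8 fell (log2 fold change -1.91, SE 0.17, edgeR adjusted p 4.18e-05), from 30.5 and 22.7 CPM to 6.46 and 7.64. Stag3 fell (log2 fold change -0.74, SE 0.11, edgeR adjusted p 0.00126), and Syce2 (log2 fold change -0.59, SE 0.11, edgeR adjusted p 0.005). Dmc1, the recombinase of meiosis, stood at 7.18 and 6.91 CPM in WT, 3.94 and 2.73 in DuxKO, 4.05 and 4.71 in Dppa2KO, 4.42 and 5.50 in CtbpDKO, 2.52 and 2.55 in Ctbp_DuxTKO, and 2.30 and 3.94 in DKO_Dppa2KO and fell by 0.97 on the log2 scale, as did Tex14 by 0.70 and Piwil2 by 0.73. Tuba3a and Rpl10l rose by 0.50 and 0.40. Stra8, Stag3 and Syce2 held without any 1 library, and the other 5 calls were each lost without at least 2 of the 4 libraries, with 4 calls left in every such fit (edgeR adjusted p 0.0688 to 0.249 for the lost calls). In the same comparison 11 of 12 tested markers of 2-cell-like cells were called lower, and the 16 listed summed to 0.650 to 0.747 CPM against 55.7 to 71.9 CPM in CtbpDKO. Of the 7 primitive endoderm markers 6 were called higher (median log2 fold change 1.42), with sums of 134 to 137 CPM against 38.5 to 40.7 CPM. The part of either in the changes of Stra8 and the other members was not tested. The interaction of Ctbp loss and Dux loss passed for 16 of 49 members (19.5% of all tested genes, 9.82% with a positive and 9.64% with a negative term). The rise on loss of Ctbp was larger without Dux for Tuba3a by 1.80 on the log2 scale (SE 0.17, edgeR adjusted p 2.23e-05), and for Rpl10l, Tex19.1, D1Pas1, Mael and Smc1b by 0.96 (Tex19.1) to 2.32 (D1Pas1). For Hsf2bp the direction differed, with a log2 fold change on Ctbp loss of -0.54 with Dux and 0.41 without it (interaction term 0.95, SE 0.15, edgeR adjusted p 0.000708). For Stra8 it was smaller, by 1.19 (SE 0.30, edgeR adjusted p 0.0132), and this call was lost without WT replicate 2 (0.0578) or DuxKO replicate 1 (0.0555).

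A set of members was higher under overexpression of Pramel7, a gene of the Prame family that is active in the early embryo. In P7OE against WT, 18 of 49 tested members were called higher (11% of all tested genes) and 4 lower (8.9%), with a median of 0.67 against -0.01. By role, 5 of 17 piRNA genes, 2 of 6 regulators, 4 of 10 synaptonemal complex and axis genes, 2 of 9 recombination genes and 5 of 7 other germ cell genes were higher. Fkbp6 stood at 0.795, 0.442, 0.462 and 0.273 CPM in WT, 0.336 and 0.107 in DuxKO, 0.283 and 0.557 in P7KO, 11 and 9.25 in P7OE, and 9.54 and 10.9 in DuxKO_P7OE. Both groups with Pramel7 overexpression lay above all other libraries (log2 fold change 4.33, SE 0.34, edgeR adjusted p 4.98e-06). Stk31, a kinase-like protein of germ granules, stood at 3.18, 2.29, 2.77 and 3.87 CPM in WT, 1.68 and 2.18 in DuxKO, 3.17 and 2.92 in P7KO, 9.81 and 8.70 in P7OE, and 7.06 and 5.21 in DuxKO_P7OE, and rose in P7OE (log2 fold change 1.62, SE 0.22, edgeR adjusted p 0.000341). Sohlh2 stood at 4.16, 2.29, 2.92 and 1.00 CPM in WT, 5.65 and 3.79 in DuxKO, 4.12 and 3.38 in P7KO, 15.4 and 13.2 in P7OE, and 13.8 and 13.1 in DuxKO_P7OE, with P7OE above WT (log2 fold change 2.45, SE 0.34, edgeR adjusted p 0.000367). Smc1b stood at 1.67, 2.53, 3.46 and 3.09 CPM in WT, 0.448 and 0.858 in DuxKO, 4.21 and 3.34 in P7KO, 9.78 and 9.31 in P7OE, and 7.34 and 16.5 in DuxKO_P7OE, and rose in P7OE (log2 fold change 1.83, SE 0.32, edgeR adjusted p 0.00169). Stag3 stood at 14.3, 13.7, 17.7 and 14.8 CPM in WT, 20.5 and 19.9 in DuxKO, 68.9 and 50.02 in P7KO, 58.7 and 57.0 in P7OE, and 42.2 and 44.5 in DuxKO_P7OE. It rose in P7OE (log2 fold change 1.93, SE 0.14, edgeR adjusted p 2.82e-06), and the P7KO libraries lay on either side of those of P7OE.

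Tuba3a had the smallest p, at 10.8, 10.7, 7.74 and 5.64 CPM in WT, 3.80 and 4.75 in DuxKO, 9.65 and 10.9 in P7KO, 70.2 and 73.3 in P7OE, and 103 and 86.5 in DuxKO_P7OE. Both P7OE libraries lay above all WT libraries (log2 fold change 3.04, SE 0.20, edgeR adjusted p 1.43e-06). Tex14 rose from the WT values given above (log2 fold change 1.98, SE 0.23, edgeR adjusted p 9.85e-05), and Tuba3b from at most 0.964 CPM to 4.07 and 4.87 (log2 fold change 3.14, SE 0.56, edgeR adjusted p 0.00186). Asz1, a germ granule protein, had 2 counts over the 4 WT libraries and 18 in P7OE, a ratio of 18.8 (exact 95% interval 4.51 to 167). Its call was lost without either P7OE library, WT replicate 3 (edgeR adjusted p 0.0554) or WT replicate 4 (0.0551), and with no filter on low counts (0.0582). Asz1 passed that filter only through libraries with Pramel7 overexpression. Its direction was set by the filter, so its place among the higher members carries no weight. Tdrd12 fell in P7OE (log2 fold change -1.05, SE 0.19, edgeR adjusted p 0.00232), and so did Sycp3 (log2 fold change -2.32, SE 0.43, edgeR adjusted p 0.00262), Ddx25 and Tex15. The Sycp3 call was lost without P7OE replicate 1 (edgeR adjusted p 0.0519). Leaving out P7OE replicate 1 left 12 calls, leaving out P7OE replicate 2 left 14, and leaving out WT replicate 6 left 23. The 4 WT libraries of this table stood apart from each other, with a chi-square per gene of 81.7 to 168 for 5 of the 6 pairs and 34.7 for replicates 3 and 4, against 14.4 to 49.8 for replicate pairs of the other groups in all tables. Set against 1 pair of WT libraries at a time, the calls of Mov10l1, Majin, Rpl10l, Ddx25 and Asz1 were lost with replicates 5 and 6 and those of Stra8 and Tex15 with replicates 3 and 4. The 7 primitive endoderm markers rose with Pramel7, with 7 of 7 called higher and sums of 77.0 to 81.5 CPM in P7OE against 7.27 to 8.999 CPM in WT. The markers of 2-cell-like cells summed to 21.7 to 25.8 CPM and 1.81 to 2.57 CPM, and the part of either in the members' rise was not tested.

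In cells without Dux, members were higher with Pramel7 overexpression as well. DuxKO_P7OE against DuxKO gave 21 of 49 tested members higher (11.6% of all tested genes) and 2 lower (9.83%), with a median of 1.34 against -0.03. Tuba3a rose (log2 fold change 4.45, SE 0.28, edgeR adjusted p 7.04e-07), and Rpl10l (log2 fold change 3.08, SE 0.25, edgeR adjusted p 4.99e-06), which brought both above every WT library of this table. Tex19.1 stood at 39.8, 38.3, 41.4 and 55.4 CPM in WT, 17.3 and 20.7 in DuxKO, 43.5 and 47.1 in P7KO, 58.2 and 57.6 in P7OE, and 79.8 and 76.7 in DuxKO_P7OE, and rose (log2 fold change 2.04, SE 0.18, edgeR adjusted p 1.18e-05) to the highest level of the table. Fkbp6 rose (log2 fold change 5.63, SE 0.51, edgeR adjusted p 1.34e-05), with values of 6.51 and 4.90 without DuxKO replicate 3 and replicate 4. Smc1b rose (log2 fold change 4.12, SE 0.47, edgeR adjusted p 7.74e-05), with values of 3.41 without DuxKO_P7OE replicate 2 and 4.71 without DuxKO replicate 4. Hormad1, a HORMA domain protein of meiotic axes, stood at 1.32, 1.85, 3.39 and 3.23 CPM in WT, 0.783 and 0.643 in DuxKO, 3.08 and 2.75 in P7KO, 6.91 and 6.63 in P7OE, and 5.78 and 5.79 in DuxKO_P7OE and rose (log2 fold change 3.03, SE 0.44, edgeR adjusted p 0.000446). Hsf2bp rose (log2 fold change 1.47, SE 0.20, edgeR adjusted p 0.000355), and Mael (log2 fold change 2.72, SE 0.41, edgeR adjusted p 0.000654). Tex15 and Tdrd1 were lower, by 1.40 and 1.25 on the log2 scale. The Tdrd1 call was lost without any 1 of the 4 libraries (edgeR adjusted p 0.0601 to 0.104). The higher members of CtbpDKO against WT (23) and P7OE against WT (18), in separate tables, share 11, which is 47.8% and 61.1% of the lists. The members lower in Dppa2KO (23) and those higher in P7OE share 12, which is 52.2% and 66.7%. The higher lists of P7OE against WT (18) and DuxKO_P7OE against DuxKO (21) share 14 members, 77.8% and 66.7% of the lists, and no library. Asz1, whose direction was set by the filter on low counts, is among those shared. Each of these lists is a large part of the 49 tested members of its table, so list size alone makes them share members. None of these overlaps was tested, and they are no measure of a common response. Pramel7 RNA was itself higher in both CtbpDKO libraries (2.04 and 2.21 CPM) than in WT (at most 0.0652 CPM), and its part was not tested. In DuxKO_P7OE, 14 of the 16 markers of 2-cell-like cells were at 0, while the primitive endoderm markers summed to 71.5 to 77.9 CPM. The part of the latter was not tested.

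Between the overexpressing lines with and without Dux, 0 of 49 members were called by edgeR, 5 had an unadjusted p under 0.05, and DESeq2 called 0. Over all tested genes the share called was 0.0298%, which is 6 of 20161 genes, and 2250 had an unadjusted edgeR p under 0.05. All 9 tested markers of 2-cell-like cells had an unadjusted edgeR p under 0.05, yet 0 of them were called. Their median log2 fold change was -3.93, with genes at 0 set to their bound. The comparison could therefore miss large changes. A p that misses the threshold does not show equal levels: Smc1b ran from 9.78 and 9.31 CPM in P7OE to 7.34 and 16.5 in DuxKO_P7OE. The interaction of Pramel7 overexpression and Dux loss passed for 7 members (7.5% of all tested genes). The effect of Pramel7 was larger without Dux for Rpl10l by 2.51 (SE 0.31, edgeR adjusted p 0.000465) and for Tex19.1 by 1.63 (SE 0.23, edgeR adjusted p 0.00126). For Tdrd12 the direction differed, with log2 fold changes of -1.05 in P7OE against WT and 1.34 in DuxKO_P7OE against DuxKO (interaction term 2.39, SE 0.30, edgeR adjusted p 0.000496). Those 3 held without any 1 library. Mael, Tuba3a and Smc1b had positive terms and Stag3 a negative term, and each of these was lost without DuxKO replicate 4. Without that library 3 members passed, and without WT replicate 6 the number was 10.

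P7KO differed from WT in 7 of 49 members, 4 higher (3.93% of all tested genes) and 3 lower (5.55%, and 9.48% either way), with a median of -0.02 against 0.01. Stag3 rose (log2 fold change 1.97, SE 0.14, edgeR adjusted p 3.6e-06), and Tex14 (log2 fold change 1.49, SE 0.23, edgeR adjusted p 0.00139). Hsf2bp stood at 26.8, 26.4, 40.0 and 32.0 CPM in WT, 17.8 and 24.3 in DuxKO, 62.2 and 64.1 in P7KO, 56.5 and 60.8 in P7OE, and 57.0 and 59.9 in DuxKO_P7OE, and its P7KO libraries lay above all 4 WT libraries (log2 fold change 1.01, SE 0.17, edgeR adjusted p 0.00195). Dmc1 rose by 1.33 on the log2 scale. Tdrd12 fell (log2 fold change -1.19, SE 0.19, edgeR adjusted p 0.0017), Mael (log2 fold change -2.11, SE 0.34, edgeR adjusted p 0.00177), and Rpl10l (log2 fold change -0.73, SE 0.20, edgeR adjusted p 0.0356). The Dmc1 and Rpl10l calls were lost without either P7KO library (edgeR adjusted p 0.114 to 0.309). In P7OE against WT, which shares the 4 WT libraries, the log2 fold changes of these 7 members were 1.93 for Stag3, 1.98 for Tex14, 0.90 for Hsf2bp, 0.78 for Dmc1, -1.05 for Tdrd12, -0.03 for Mael and 0.57 for Rpl10l. Dmc1 and Mael were not called there (edgeR adjusted p 0.19 and 0.955), and Rpl10l was called higher in P7OE and lower in P7KO. Of the 7 primordial germ cell markers 5 were called higher in P7KO, with sums of 123 to 124 CPM against 65.8 to 77.2 CPM in WT, and their part in the result was not tested. Pramel7 RNA was at most 4 counts in these WT libraries. In the DuxKO libraries Stag3 stood at 20.5 and 19.9 CPM and was not called against WT (log2 fold change 0.42, edgeR adjusted p 0.0698).

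**Figure D4:**
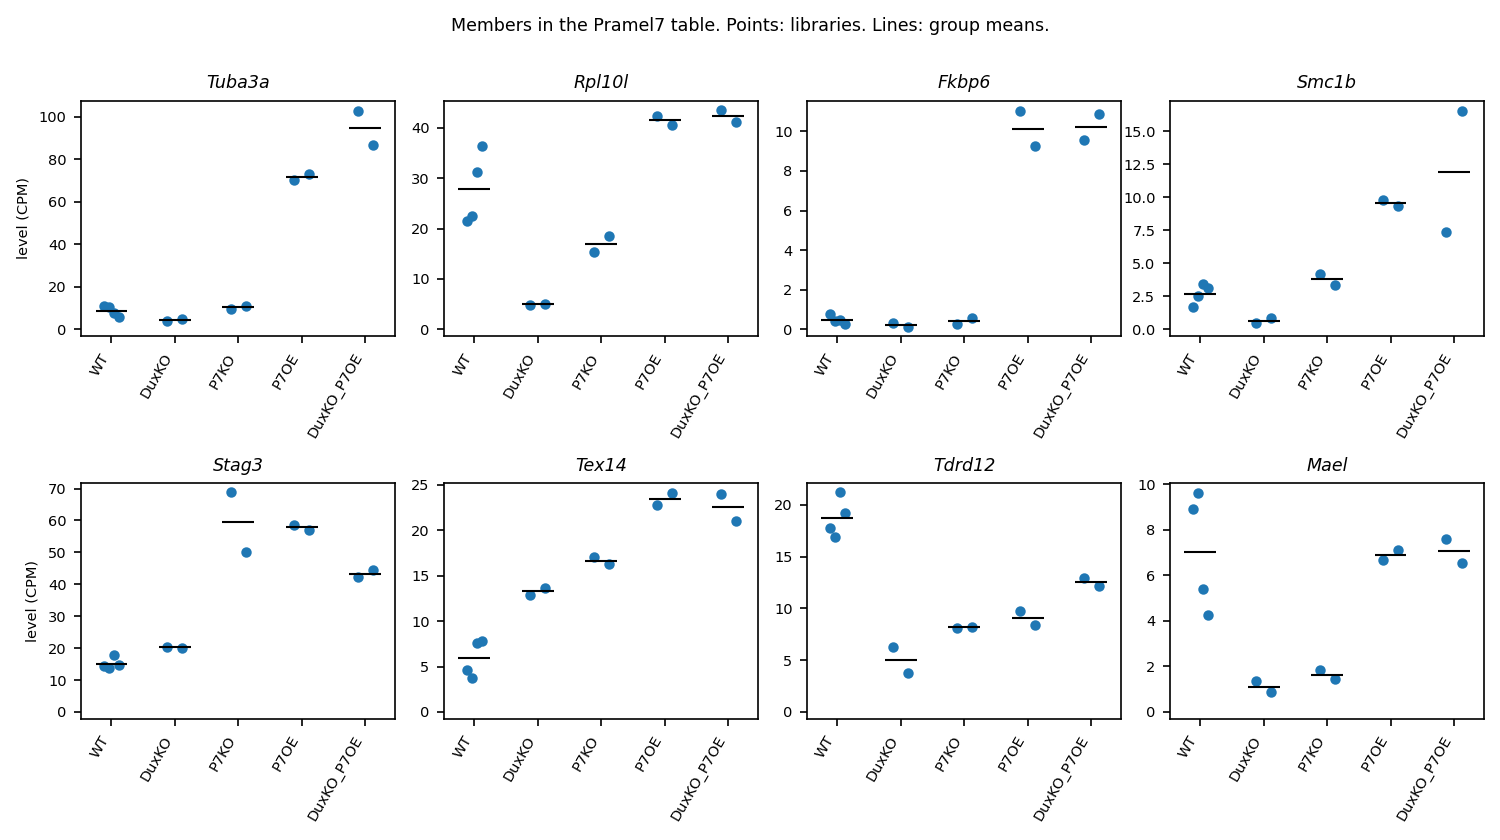
CPM of 8 members in the 12 libraries of the Pramel7 table, with 1 panel a gene, a point for each library and a line at the group mean. Tuba3a, Fkbp6 and Smc1b are high in P7OE and DuxKO_P7OE, Stag3 and Tex14 are also high in P7KO, and Mael is low in DuxKO and P7KO.

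In the time course of CtbpDKO cells, Ctbp2 reads were 1184 and 1328 at day 0, 11119 and 11231 at day 3, 8466 and 6774 at day 9, 866 and 1268 at day 12 and 926 and 1646 at day 18, so Ctbp2 came back and was lost again while Ctbp1 stayed at 4 counts or fewer. Members changed in both directions. At day 3 against day 0, 5 of 51 tested members were higher (2.41% of all tested genes) and 3 lower (2.59%, and 4.99% either way). At day 9 against day 0, 3 were higher (3.6%) and 6 lower (3.73%). The medians were 0.11 and 0.05, against 0.00 and -0.01 over all tested genes. Summed over the 55 members, levels were 436 to 458 CPM at day 0, 466.5 to 487 at day 3 and 420 to 428 at day 9. They were 413 to 426 CPM at day 12 and 543 to 590 at day 18. Of the 23 members higher in CtbpDKO against WT, Stra8, Rpl10l, Tuba3a and D1Pas1 were called lower at day 9 against day 0. The others of the 23 were not called there, and Ddx4 and Tdrkh were called higher at day 3. Stra8 stood at 14.3 and 12.9 CPM at day 0, 3.37 and 3.01 at day 3, 4.28 and 5.67 at day 9, 8.15 and 8.92 at day 12, and 39.6 and 22.7 at day 18. It fell with the return of Ctbp2 (log2 fold change -2.09, SE 0.25, edgeR adjusted p 0.000379 at day 3) and was highest at day 18. Rpl10l stood at 20.7 and 22.6 CPM at day 0, 11.3 and 15.2 at day 3, 10.5 and 10.9 at day 9, 22.2 and 20.2 at day 12, and 29.7 and 32.0 at day 18. It was lower at day 9 (log2 fold change -1.01, SE 0.15, edgeR adjusted p 0.0008), and its day 12 libraries overlapped those of day 0. Hsf2bp stood at 36.7 and 39.1 CPM at day 0, 25.5 and 30.1 at day 3, 18.4 and 21.7 at day 9, 22.0 and 25.9 at day 12, and 48.8 and 46.4 at day 18, lower at day 9 (log2 fold change -0.92, SE 0.13, edgeR adjusted p 0.000633). Rpl10l and Tdrd5 at day 3, and Stra8, Tuba3a, D1Pas1 and Sohlh2 at day 9, were the other calls lower than day 0. At day 9 against day 0, 11 of 14 tested markers of 2-cell-like cells were called lower (median log2 fold change -2.33), with sums of 70.1 to 104 CPM at day 0, 61.6 to 84.4 CPM at day 3 and 16.4 to 18.4 CPM at day 9. At day 3 against day 0, 2 of those 14 and 4 of 7 primordial germ cell markers were lower, the latter with sums of 117 to 120.3 CPM at day 0 and 83.6 to 87.1 CPM at day 3. The part of either in the members' changes was not tested.

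Other members rose with Ctbp2. Tex14 stood at 16.1 and 17.4 CPM at day 0, 29.5 and 31.8 at day 3, 26.9 and 25.1 at day 9, 19.9 and 18.8 at day 12, and 23.1 and 19.0 at day 18, higher at day 3 (log2 fold change 0.87, SE 0.13, edgeR adjusted p 0.00166) and at day 9 (log2 fold change 0.63, SE 0.13, edgeR adjusted p 0.00858). Meioc, an RNA regulator of meiotic entry, stood at 9.21 and 6.48 CPM at day 0, 15.1 and 16.2 at day 3, 14.1 and 14.7 at day 9, 8.50 and 6.77 at day 12, and 8.83 and 5.62 at day 18. It rose at day 3 (log2 fold change 1.00, SE 0.22, edgeR adjusted p 0.0179). Rec8, the meiotic kleisin of cohesin, stood at 2.44 and 3.66 CPM at day 0, 5.77 and 6.47 at day 3, 7.72 and 7.24 at day 9, 2.28 and 3.25 at day 12, and 2.60 and 2.43 at day 18. It rose by day 9 (log2 fold change 1.29, SE 0.26, edgeR adjusted p 0.00784). Ddx4 and Tdrkh, a Tudor domain protein of piRNA maturation, rose at day 3, by 0.77 and 0.86 on the log2 scale. Of the calls at day 3, Stra8 and Tex14 held without any 1 library, and 2 calls were left without day 3 replicate 1. Of those at day 9 against day 0, Stra8, Rpl10l and Hsf2bp held, and 3 were left without day 9 replicate 1. The Meioc call at day 3 was lost without day 0 replicate 2 (edgeR adjusted p 0.138) or either day 3 library (0.0858 and 0.102), and the Rec8 call at day 9 without day 0 replicate 1 (0.0811) or day 9 replicate 1 (0.0558). Without the same libraries the Tex14 call at day 9 was lost too (0.0791 and 0.0764). Between day 3 and day 9, 1 of 51 members was called, Tuba3a (log2 fold change -0.81, SE 0.12, edgeR adjusted p 0.00608, 1.12% of all tested genes, 0.524% higher and 0.592% lower), and not without day 3 replicate 1 (edgeR adjusted p 0.0623) or day 9 replicate 1 (0.0785).

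When Ctbp2 fell again, 3 members were called at day 12 against day 9 (3.84% of all tested genes). Rpl10l rose (log2 fold change 0.98, SE 0.15, edgeR adjusted p 0.00241), and Rec8 (log2 fold change -1.42, SE 0.26, edgeR adjusted p 0.00715) and Meioc (log2 fold change -0.92, SE 0.22, edgeR adjusted p 0.0312) fell. The Meioc call was lost without any 1 of the 4 libraries (edgeR adjusted p 0.0875 to 0.262) and the Rec8 call without day 9 replicate 1 (0.0544) or day 12 replicate 1 (0.0875). At day 18 against day 12, 6 members were higher, where 0.64% of all tested genes were, and 0 lower (0.18%). Tuba3a stood at 31.2 and 36.1 CPM at day 0, 40.3 and 37.0 at day 3, 19.8 and 24.2 at day 9, 24.8 and 24.5 at day 12, and 58.7 and 59.3 at day 18, and rose (log2 fold change 1.26, SE 0.12, edgeR adjusted p 0.000296). Smc1b stood at 11.4 and 9.65 CPM at day 0, 9.58 and 11.2 at day 3, 6.18 and 6.98 at day 9, 4.39 and 5.96 at day 12, and 21.4 and 16.1 at day 18, with day 18 above all other days (log2 fold change 1.83, SE 0.20, edgeR adjusted p 0.000937). Stra8 rose (log2 fold change 1.85, SE 0.23, edgeR adjusted p 0.00163), Hsf2bp (log2 fold change 0.99, SE 0.13, edgeR adjusted p 0.00253), Sohlh2 (log2 fold change 1.44, SE 0.19, edgeR adjusted p 0.0026), and Tuba3b (log2 fold change 1.65, SE 0.34, edgeR adjusted p 0.0426). The Hsf2bp call was lost without day 12 replicate 1 (edgeR adjusted p 0.0564), and the Tuba3b call without that library (0.286) or either day 18 library (0.117 and 0.152), and the Tuba3b value was 2.56 without day 12 replicate 2. Against day 0, 2 members were higher at day 18 (0.359% of all tested genes), Tuba3a (log2 fold change 0.81, SE 0.12, edgeR adjusted p 0.006) and Stra8 (log2 fold change 1.19, SE 0.22, edgeR adjusted p 0.0282), and neither held without day 0 replicate 1. The markers of 2-cell-like cells summed to 70.1 to 104 CPM at day 0, 15.8 to 17.0 CPM at day 12 and 46.8 to 68.5 CPM at day 18, with 6 of 14 tested called higher at day 18 against day 12. The 7 primitive endoderm markers summed to 28.8 to 31.5 CPM at day 12 and 63.7 to 72.4 CPM at day 18, with 1 called higher, and the part of either in the late rise was not tested.

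**Figure D5:**
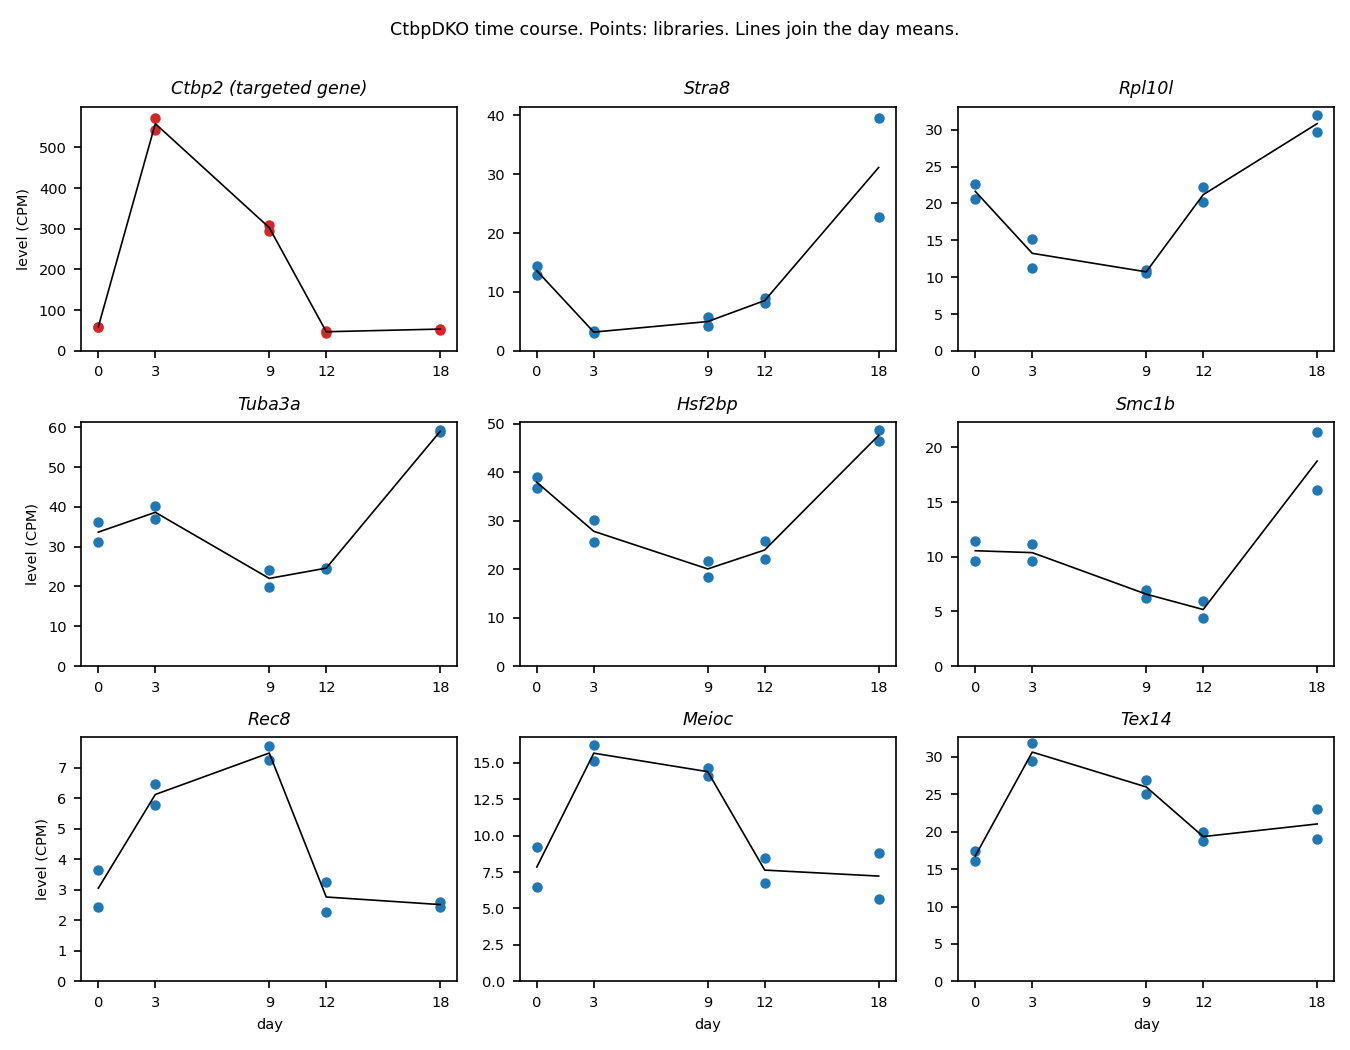
CPM of Ctbp2 and of 8 members against day in CtbpDKO cells, with 2 points a day and a line through the day means. Ctbp2 is high at days 3 and 9, Stra8 and Rpl10l are low then, Rec8, Meioc and Tex14 are high then, and Tuba3a, Smc1b and Hsf2bp are highest at day 18.

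Over the 21 comparisons, 43 of the 55 members were called at least once and 12 in none. The 12 were Piwil4, Tdrd6, Tdrd7, Figla, Nobox, Syce3, Sycp2, Spo11, Msh4, Mei1, Mei4 and Prdm9, among them Spo11, which cuts DNA to start meiotic recombination, and Prdm9, which marks the sites. Spo11 had at most 2 counts in any library. Rpl10l was called in 17 comparisons and Tuba3a in 16, the most of any member, then Stra8 in 12 and Smc1b, Hsf2bp, Mael and D1Pas1 in 11 each. The comparisons share libraries, so these numbers are a description. Where no call was made, low counts limit what could be detected.

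A further 35 germline genes, of which 25 were tested in each table, were fixed as a list beside the members. In CtbpDKO against WT 5 were higher (14.7% of all tested genes) and 2 lower (11.4%), among them Zcwpw1, a reader of histone marks in meiosis (log2 fold change 1.5, SE 0.12, edgeR adjusted p 1.3e-06) and Rhox5, a homeobox gene of the reproductive tract (log2 fold change 3.15, SE 0.26, edgeR adjusted p 1.56e-06). Dnd1, an RNA-binding protein of primordial germ cells, fell (log2 fold change -0.97, SE 0.14, edgeR adjusted p 0.000151). In Dppa2KO 1 of the 25 was higher (7.67% of all tested genes) and 3 were lower (8.69%), with a median of -0.30 against -0.02. In P7OE 2 of the 25 were higher (11%) and 1 lower (8.9%), with a median of 0.00 against -0.01. In Dppa2KO and P7OE too, the calls of this list lay near the shares of all tested genes. In DuxKO_P7OE against DuxKO 8 of the 25 were higher (11.6%) and 2 lower (9.83%), with a median of 0.13 against -0.03. Zp3, an egg coat gene, fell in DuxKO in both tables (genotype table log2 fold change -1.89, SE 0.49, edgeR adjusted p 0.0177) and rose in DuxKO_P7OE (log2 fold change 4.78, SE 0.43, edgeR adjusted p 1.27e-05). Of 25 genes for repressors and regulators of germline promoters, all tested, 10 were higher in CtbpDKO and 0 lower, beside the same shares of all tested genes as above. The smallest p were those of the DNA methyltransferase genes Dnmt3l (log2 fold change 1.60, SE 0.09, edgeR adjusted p 2.42e-08), Dnmt3b (log2 fold change 1.67, SE 0.09, edgeR adjusted p 2.89e-08) and Dnmt3a (log2 fold change 1.07, SE 0.08, edgeR adjusted p 7.4e-07). In Dppa2KO 4 were higher and 5 lower, with Dppa2 itself at a log2 fold change of -0.92, Dnmt3b at -0.46 and Yaf2, a Polycomb subunit, at -0.96. In P7OE 3 were higher and 5 lower: Dnmt3a rose (log2 fold change 1.17, SE 0.12, edgeR adjusted p 4.64e-05), Dnmt3b fell (log2 fold change -1.35, SE 0.17, edgeR adjusted p 0.000197), and Tet2, a DNA demethylation enzyme gene, rose by 0.96 on the log2 scale. The other 17 of the 25 were not called in P7OE, and the median log2 fold change of the list was -0.04. In DuxKO_P7OE against DuxKO 5 were higher and 5 lower. The part of these genes in the members' rise in P7OE was not tested.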

How the data were processed

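RNA counts per gene from 34 libraries in 3 tables were used as deposited by the authors. Per the submitters' processing notes, Trim Galore, HISAT2, featureCounts and mm10 were used, and whether counting used strand is not given in the sources used here, though the kit was stranded per the labels' protocols. A second genotype table of 8 libraries repeats 442208 values of the first and was not used, and 6 bisulfite libraries were not analysed here. In R 4.3.3 each table was filtered (filterByExpr), scaled (TMM) and fitted once over its groups with edgeR 4.0.16 (limma 3.58.1), by the quasi-likelihood test with Benjamini-Hochberg adjustment over all tested genes at 0.05. CPM use the scaled library sizes. Fits were tested on simulated data. A group with 0 counts was set at 3 counts over the group, and ratios with 1 to 3 counts carry exact 95% intervals. At depths of at least 10123058 counts, intervals cover counting error only. Alternatives were other size factors, no filter, DESeq2 1.42.0, a replicate block, libraries left out and subsets of WT. Members and lists were chosen with earlier results of these data known. Up to 8 called members per direction and comparison, in order of p, were named, with at least 50 counts for library values, here printed as CPM for the leading members, and up to 3 genes of each other list.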

Additional observations from a re-analysis of the deposited data

Results flagged for a closer look

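The following members responded unequally to 1 change with and without another, by the edgeR interaction test at an adjusted p under 0.05. Each value is the difference between log2 fold changes, positive where the effect was higher in the Dux or Dppa2 knockout background. For Ctbp loss with and without Dux, the positive terms were those of Mael (2.03), Tdrd9 (7.10), Fkbp6 (2.28), Tex19.1 (0.96), Hormad1 (1.64), Smc1b (2.07), Hsf2bp (0.95), Rpl10l (1.24), D1Pas1 (2.32) and Tuba3a (1.80). The negative terms were those of Ddx4 (-1.16), Piwil2 (-0.83), Tdrkh (-2.03), Stra8 (-1.19), Syce2 (-1.25) and Stag3 (-0.60). Tdrd9 had 0 counts in DuxKO, so its term is set by the prior count and is no measure of size. For Ctbp loss with and without the Dppa2 knockout, the positive terms were those of Ddx4 (5.47), Tdrd5 (1.80), Syce1 (5.70), Sycp1 (4.38), Hormad2 (1.84) and Rpl10l (1.46), of which Ddx4 and Syce1 had 0 counts in Dppa2KO. The negative terms were those of Stra8 (-2.53) and Syce2 (-0.61). For Pramel7 overexpression with and without Dux, the positive terms were those of Mael (2.75), Tdrd12 (2.39), Tex19.1 (1.63), Smc1b (2.29), Rpl10l (2.51) and Tuba3a (1.42), and the negative term that of Stag3 (-0.83). The Pramel7 level in CPM was also higher in DuxKO_P7OE than in P7OE, as given above, and its part in these terms was not tested.

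Among the 4 WT libraries of the Pramel7 table, a check for 1 library apart from the other 3 flagged 2 of the 55 members checked. Asz1 had 2 counts (0.0770 CPM) in WT replicate 5 and Spo11 had 1 count (0.0379 CPM) in WT replicate 3, with 0 in the rest. Any gene counted in 1 library and at 0 in the other 3 is flagged by this rule, so neither flag marks an unusual library. The usual chance rate of about 1 in 20 groups does not apply to such counts.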

How the results depend on the processing

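No called member changed direction under any alternative, over 2509 values. Calls were lost in 364 of these, 332 of them with 1 library left out and 32 under another size factor, filter, tool, block or choice of WT libraries. Without the filter on low counts, 13 members passed the interaction of Ctbp and Dppa2 loss (8 in the main test), 3 were called at day 9 against day 3 (1), 5 at day 12 against day 9 (3) and 6 at day 18 against day 0 (2). DESeq2 called 2 at day 9 against day 3 and 4 at day 18 against day 0. With WT replicates 3 and 4 only, 11 members were called in P7KO against WT (7) and 11 passed the interaction of Pramel7 and Dux (7), as did 11 with WT replicates 5 and 6 only. The causes were not tested. With 1 library left out at a time, the count ran from 16 to 19 in CtbpDKO against WT, 9 to 13 in DuxKO against WT of the genotype table and 5 to 13 of the Pramel7 table, 4 in Ctbp_DuxTKO against CtbpDKO, 17 to 20 in DKO_Dppa2KO against CtbpDKO, 12 to 23 in P7OE against WT, 5 to 9 and 3 to 10 for the interactions of Dppa2 and of Pramel7, 2 to 4 at day 3 and 3 to 6 at day 9 against day 0, 0 to 1 at day 9 against day 3, 1 to 2 at day 12 against day 9, and 0 to 3 at day 18 against day 0. Where a group then held 1 library, it was assumed to vary like the others.

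Libraries of the same number did not deviate together, with r from -0.098 to 0.065 over 15 pairs of groups in the genotype table and -0.08 to 0.092 over 10 in the time course, so the numbers pair nothing. With a replicate block the counts were 22 in CtbpDKO against WT (25 without), 23 in Dppa2KO against WT (24), 7 in Ctbp_DuxTKO against CtbpDKO (8) and 12 in DuxKO against WT of the Pramel7 table (11), and no count moved by over 1.5 times. Members under about 50 counts give a call or a fitted value that 1 library can decide.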
